A study of Mus musculus with 18 samples.

Results

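The 13 protein-coding genes of the mouse mitochondrial genome, the genes whose symbols begin with mt-, were followed across neutrophils of 6 tissues. All genes of the table with such a symbol were taken, which gave 13 of its 32328 genes. The GENCODE annotation lists 37 mt- genes, and its 2 ribosomal RNA and 22 transfer RNA genes were not analysed here. The 18 libraries were made from Ly6G+ neutrophils sorted from adult C57BL/6 mice of 8 to 12 weeks, 3 libraries per tissue, and the mice carry no other allele or treatment in the labels. The groups are bone marrow (BM), Blood, Spleen, Lung, Intestine (labelled as colon) and Skin (labelled as ear). The labels do not say whether the 3 libraries of a tissue came from separate animals or pools, nor what marks such as "rep" after the letter of Blood replicate 2 and Skin replicate 1, or the letter D of Blood replicate 3, stand for, and p-values therefore rest on library-to-library spread alone, which may be technical. The study set tissue neutrophils side by side, with Blood as the circulating population. Values are estimated read counts scaled to a library of 1e6 (scaled counts); they are not divided by gene length, so levels of different genes are compared only after division by length.

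Mitochondria keep a small circular genome of their own. Its protein genes all code for core subunits of the oxidative phosphorylation machinery: 7 for complex I (NADH dehydrogenase), 1 for complex III (cytochrome bc1), 3 for complex IV (cytochrome c oxidase) and 2 for complex V (ATP synthase). The genome is read from both strands as long RNAs that are cut at the transfer RNAs, and every other subunit, the mitochondrial polymerase and the proteins of the mitochondrial ribosome come from the nucleus. Neutrophils are known for relying on glycolysis and for holding few mitochondria.

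Many of these genes have near-identical copies in nuclear chromosomes, so reads from those genes cannot always be placed. Of all stretches of 61 bases in a gene, the length of the reads, the share also found in nuclear transcripts of the table was 0% for mt-Nd1, mt-Nd6, mt-Cytb and mt-Atp8, 4.14% for mt-Nd5 and 7.05% for mt-Nd2. It was 46.1% for mt-Co1 and 61.9% for mt-Nd4. For mt-Nd3, mt-Nd4l, mt-Atp6, mt-Co3 and mt-Co2 it was 97.9%, 98.7%, 99.5%, 99.9% and 100%. The copies are 12 annotated pseudogenes. A block on chromosome 1 holds 7 of them, in the order of the mitochondrial genome: Gm29216 (like mt-Co1), Gm28661 (mt-Co2), Gm10925 (mt-Atp6), Gm28437 (mt-Co3), Gm28438 (mt-Nd3), Gm10222 (mt-Nd4l) and Gm28439 (mt-Nd4). Gm13339, Gm13340 and Gm13341 lie on chromosome 2, Gm11407 on chromosome 4 and Gm4076 on chromosome 13.

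The ends of mt-Co2 and mt-Atp6 are shown beside those of their chromosome 1 copies, because the copies match these genes over their whole length and lack only the last 3 bases, in capitals. The sequences are the ends of the GENCODE transcripts on GRCm38, at chrM:7637-7696 (plus strand), chr1:24614885-24614941 (minus strand), chrM:8548-8607 (plus strand) and chr1:24613974-24614030 (minus strand).
mt-Co2: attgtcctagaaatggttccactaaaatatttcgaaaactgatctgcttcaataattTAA
Gm28661: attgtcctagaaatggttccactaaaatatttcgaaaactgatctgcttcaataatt
mt-Atp6: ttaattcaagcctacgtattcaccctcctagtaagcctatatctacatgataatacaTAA
Gm10925: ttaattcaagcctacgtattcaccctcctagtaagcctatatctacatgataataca
Copies of 294 and 876 bases likewise match mt-Nd4l and part of mt-Nd4 with 0 substitutions, and the copy of mt-Co3 lacks 1 base at its end.

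The copy of mt-Nd3 has 1 substitution in 345 bases, T3C, with positions counted from 1 at the start of the mitochondrial transcript. The full-length copy of mt-Co1 on chromosome 2, Gm13340, has 37 in 1545 bases. The first bases of the former pair and a window of the latter are shown with the differing bases in capitals (C54A, A60G and G87A in mt-Co1), to set a pair that a read of 61 bases can hardly tell apart beside one that it can. They lie at chrM:9459-9518 (plus strand), chr1:24613060-24613119 (minus strand), chrM:5368-5428 (plus strand) and chr2:22589547-22589607 (minus strand) on GRCm38.
mt-Nd3: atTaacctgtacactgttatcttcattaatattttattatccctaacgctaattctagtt
Gm28438: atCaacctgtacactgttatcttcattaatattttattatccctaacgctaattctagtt
mt-Co1: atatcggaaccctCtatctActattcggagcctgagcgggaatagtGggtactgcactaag
Gm13340: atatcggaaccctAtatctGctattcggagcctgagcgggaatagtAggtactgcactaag
A read from inside mt-Co2 therefore has no base that places it on the mitochondrial genome, while most of mt-Nd2, mt-Nd5 and all of mt-Nd1, mt-Nd6 and mt-Cytb is unique.

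The deposited counts divided unevenly between these genes and their copies. Of the counts of mt-Atp6 plus Gm10925, mt-Atp6 received 98.5% in BM replicate 1, 86.1% in Spleen replicate 2 and 100% in Skin replicates 1 and 3, but 0.0277% in BM replicate 2 and 0.0456% in Intestine replicate 2. The part given to mt-Co2, whose protein binds cytochrome c, was 89.1% in Lung replicate 3, 21.0% in Spleen replicate 3 and at most 8.34% in the other 16 libraries. For mt-Co3 it was 9.58% to 12.8% in 14 libraries and 98.3%, 82.0%, 98.0% and 100% in BM replicate 1, Intestine replicates 1 and 2 and Skin replicate 3. The part of mt-Nd3 was 0% in 5 libraries, 64.4% and 78.9% in BM replicate 3 and Blood replicate 1, and at least 99.8% in the other 11. By contrast mt-Co1 kept 96.6% to 99.9% in every library and mt-Nd4 74.2% to 100%. In some tissues the libraries fell at opposite ends for a gene. The level of a gene with such a copy was therefore also computed with the counts of its copies added (locus level). Whether any of these counts came from the nuclear copies was not tested.

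**Figure D1:**
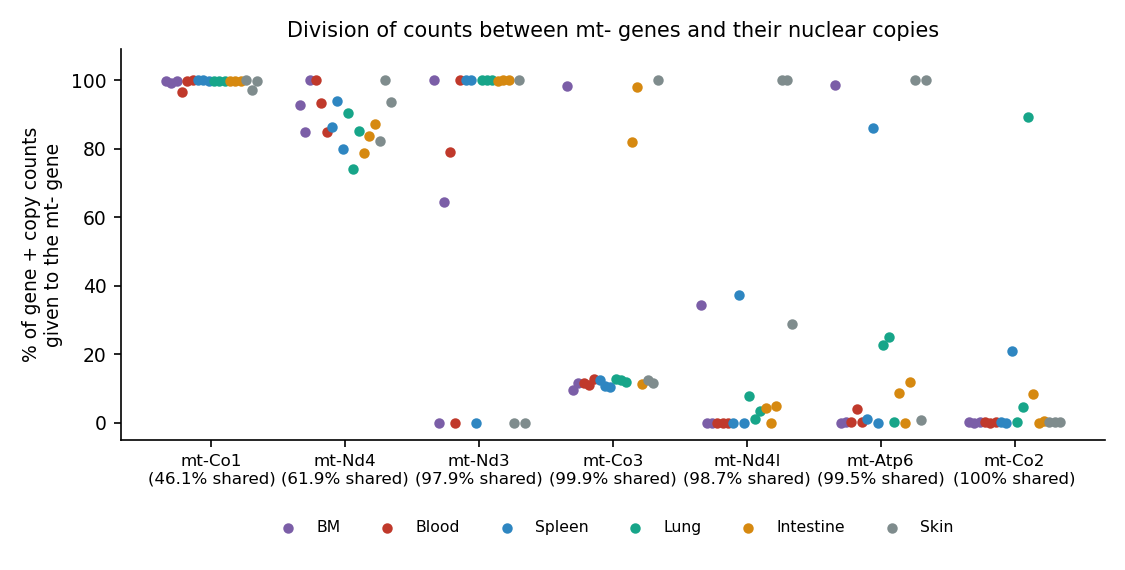
Percent of the estimated counts of an mt- gene plus its nuclear copies that the deposited table gives to the mt- gene (vertical axis), for the 7 genes that share over 10% of their 61-base stretches with copies; each point is 1 of 18 libraries, coloured by tissue. The points of mt-Co1 and mt-Nd4 stay above 74%. Those of mt-Nd3, mt-Co3, mt-Nd4l, mt-Atp6 and mt-Co2 spread over most of the axis, and in some tissues, not all, libraries of the same tissue lie far apart.

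Together the 13 genes took the smallest part of the estimated counts in Blood, 0.218% ± 0.00980 (SD, n = 3 for all tissues), and the next smallest in BM, 0.393% ± 0.104. It was largest in Intestine, 13.3% ± 8.54, and lay between these in Lung (2.41% ± 0.472), Skin (2.02% ± 0.518) and Spleen (0.911% ± 0.232). The ranges of Blood, BM, Spleen and Intestine did not overlap with each other or with those of Lung and Skin, and those of Lung (1.93% to 2.87%) and Skin (1.64% to 2.61%) overlapped. Intestine replicate 1 gave 23.2% against 8.58% and 8.24% in the other 2, and the Intestine mean without it was 8.41%. With the nuclear copies counted in, the means were 17.2% ± 10.7 for Intestine, 3.01% ± 0.634 for Lung, 2.33% ± 0.827 for Skin, 1.16% ± 0.395 for Spleen, 0.494% ± 0.129 for BM and 0.287% ± 0.0111 for Blood, in the same order. Skin libraries gave 26.4% to 54.7% of their counts to transcripts related to Gm10800, a predicted gene, against 1.07% to 9.02% elsewhere. Without those transcripts in the total the Skin part was 3.61% ± 1.23, above that of Lung at 2.57% ± 0.446. Libraries held 2935582 to 12087938 estimated counts, and the 95% Wilson interval of a library's part, which covers counting error only, reached at most 0.0263 percentage points to either side. These sums over the genes are given with no test. The libraries also differed in markers of cell types: summed neutrophil markers were 30483 to 32506 scaled counts in Blood and 936 to 1165 in Intestine. Markers of stromal, endothelial, epithelial and plasma cells were higher in Intestine, and the part of such cells in the mitochondrial levels was not tested. In bulk libraries a change in the number of cells of a type and a change in RNA per cell cannot be told apart.

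**Figure D2:**
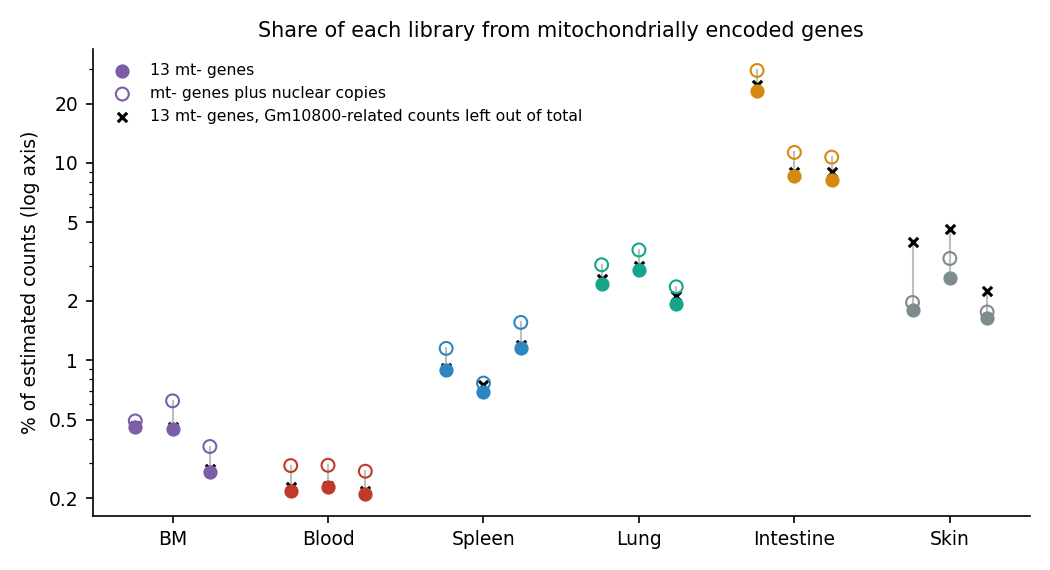
Percent of the estimated counts of each library (vertical axis, log scale) that belong to the 13 mt- genes (filled), to them and their nuclear copies (open) and to the 13 genes with Gm10800-related transcripts left out of the total (crosses), 3 libraries per tissue. Blood lies lowest at 0.209% to 0.228% and Intestine highest at 8.24% to 23.2%, and the crosses move away from the filled points mainly in Skin.

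All 13 genes were high enough to be tested, and each was compared between tissues with limma on log2(scaled count + 1), adjusted by Benjamini-Hochberg over 16157 genes. Of the 13, 11 differed between the 6 tissues, against 31.9% of all genes. The 2 that did not pass, mt-Co2 and mt-Atp6, share nearly all their stretches with copies, but so do mt-Co3, mt-Nd4l and mt-Nd3, which passed. Against Blood all 13 differences were positive in each of the 5 tissues in the main fit. With a weight for each library 12 of 13 were positive in Skin, and without Skin replicate 2 the Skin difference of mt-Nd3 was -2.02. In Intestine 11 of 13 were higher and 0 lower (15.8% of all genes higher, 10.1% lower), in Skin 11 and 0 (5.64% and 10.4%), in Lung 8 and 0 (5.27% and 1.02%) and in Spleen 4 and 0 (0.477% and 0.13%). Leaving out 1 library took the Spleen count to 1 (without Blood replicate 1 or 2, or Spleen replicate 1 or 3) or 2 (without Spleen replicate 2). In BM 0 passed limma's test, where 0.105% of all genes were higher and 0.099% lower, and 5 of the 13 had an unadjusted p under 0.05. Against the mean of the other 5 tissues 10 of 13 were higher in Intestine and 0 lower (15.2% and 8.18%). In the 5 comparisons with Blood the median log2 difference of the 13 genes was 6.40 in Intestine, 4.33 in Skin, 4.26 in Lung, 2.25 in Spleen and 1.11 in BM. Over all tested genes the medians were 0.12, -0.26, 0.03, 0.03 and -0.0040. The comparisons share the 3 Blood libraries. With the copies added, 13, 13, 12, 5 and 0 of 13 genes were higher than Blood in Intestine, Skin, Lung, Spleen and BM, and 13 were higher in Intestine than in the mean of the others.

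The unique complex I genes had their lowest levels in Blood. mt-Nd1, a subunit at the foot of the membrane arm where ubiquinone binds, had scaled counts of 7725, 2306 and 1955 in Intestine, 1540, 5834 and 913 in Skin, 549, 794 and 617 in Lung, 211, 204 and 286 in Spleen, 104, 136 and 40.2 in BM and 34.8, 20.0 and 43.5 in Blood. All libraries of Spleen, Lung, Intestine and Skin lay above all 3 of Blood, and BM overlapped with it. The log2 difference from Blood was 6.67 ± 0.61 (SE) in Intestine, 5.97 ± 0.61 in Skin, 4.33 ± 0.61 in Lung and 2.85 ± 0.61 in Spleen, with limma adjusted p of 4.02e-07, 2.88e-06, 0.000151 and 0.0281. Its mean level was 122-fold that of Blood in Intestine (65.1-fold without replicate 1) and 84.4-fold in Skin (37.5-fold without replicate 2). Skin replicate 2, at 5834, lay above Intestine replicates 2 and 3.

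mt-Nd2, a proton-pumping subunit, read 23169, 7650 and 7500 in Intestine, 2453, 8858 and 1950 in Skin, 1773, 2678 and 2080 in Lung, 610.1, 537 and 803 in Spleen, 241, 297 and 192 in BM and 82.4, 116 and 142 in Blood. It was above Blood in every library of the other 5 tissues, and it rose by 6.62 ± 0.48, 4.97 ± 0.48, 4.26 ± 0.48 and 2.52 ± 0.48 (log2, SE) in Intestine, Skin, Lung and Spleen, with limma adjusted p from 5.08e-08 in Intestine to 0.0135 in Spleen. mt-Nd5, at the far end of the membrane arm, read 27372, 7814 and 7553 in Intestine, 3868, 10567 and 2532 in Skin, 1979, 2813 and 2469 in Lung, 1023, 779 and 1273 in Spleen, 388, 477 and 265 in BM and 102, 102 and 173 in Blood. It had the smallest adjusted p of the 13 in Spleen, 0.00290 by limma, at a log2 difference of 3.04 ± 0.49. In BM its libraries were all above Blood, with a log2 difference of 1.58 ± 0.49 that did not pass (limma adjusted p = 0.275). The differences in Lung, Intestine and Skin were 4.29 ± 0.49, 6.58 ± 0.49 and 5.26 ± 0.49, and all passed.

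mt-Nd6 is the only protein gene of the light strand, and its subunit sits in the membrane arm. Its scaled counts were 16451, 4238 and 3560 in Intestine, 1956, 886 and 1072 in Skin, 1234, 1679 and 1274 in Lung, 511, 485 and 636 in Spleen, 266, 243 and 168 in BM and 110.2, 89.9 and 145 in Blood. Every other tissue lay above Blood, and the 3 Intestine libraries lay above all 15 others. The log2 difference was 5.79 ± 0.46 in Intestine, 3.43 ± 0.46 in Skin, 3.60 ± 0.46 in Lung and 2.25 ± 0.46 in Spleen, and each passed (limma adjusted p of 9.71e-08, 4.89e-05, 7.35e-05 and 0.0203). In Skin replicate 2 it was the lowest of the 3 Skin libraries at 886, whereas the heavy-strand genes mt-Nd1, mt-Nd2, mt-Nd5 and mt-Cytb were highest there. It overlaps mt-Nd5 by 14 bases on the opposite strand, and since the use of strand in the counting is not stated, reads of that overlap cannot be told apart. The long RNA of the other strand also crosses the rest of mt-Nd6 and could be counted for it. Its values may therefore not be light-strand RNA alone.

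mt-Nd4, a pumping subunit of which 876 bases recur in Gm28439, read 24707, 7888 and 8990 in Intestine, 2930, 9586 and 1735 in Skin, 2182, 2210 and 2189 in Lung, 630.1, 557 and 761 in Spleen, 369, 477 and 262 in BM and 187, 206 and 199.7 in Blood. It rose in Lung, Intestine and Skin by 3.47 ± 0.48, 5.93 ± 0.48 and 4.20 ± 0.48 (log2, SE). With the copy added these differences were 3.63 ± 0.49, 6.08 ± 0.49 and 4.22 ± 0.49. In Spleen all 3 libraries were above Blood, and the difference of 1.70 ± 0.48 did not pass (limma adjusted p = 0.133).

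The 2 short complex I genes, mt-Nd3 and mt-Nd4l, are small membrane subunits, and their deposited levels dropped to nothing in single libraries. mt-Nd4l had 0 counts in 8 libraries, among them all 3 of Blood, and mt-Nd3 in 5. In BM and Spleen only 1 library each had counts, BM replicate 1 at 32.3 and Spleen replicate 2 at 67.5 scaled counts. The deposited split can be set against a floor of 3 counts per Blood library. The mean level given to mt-Nd4l was then at least 1813-fold higher in Skin, 612-fold in Intestine and 94.8-fold in Lung. Gm10222 held 84, 524 and 454 counts in Blood replicates 1 to 3, so these bounds describe the split and are no minimum for the gene. Without the highest library of each tissue (Skin replicate 2, Intestine replicate 1, Lung replicate 1) these bounds were 1054-fold, 249.9-fold and 51.1-fold. With the copy Gm10222 added the same gene read 10567, 3720 and 3374 in Intestine, 572, 1108 and 448 in Skin, 785, 1198 and 659.9 in Lung, 276, 181 and 459 in Spleen, 94.4, 221 and 86.1 in BM and 10.1, 57.1 and 47.3 in Blood. None of these was 0. The mean was 154-fold that of Blood in Intestine (92.9-fold without replicate 1), 18.6-fold in Skin and 23.1-fold in Lung. The log2 difference with the copy was 7.34 ± 0.60 in Intestine, 4.39 ± 0.60 in Skin, 4.76 ± 0.60 in Lung and 3.18 ± 0.60 in Spleen, all past the threshold.

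mt-Nd3 with its copy read 972, 320.1 and 165 in Intestine, 137, 285 and 74.9 in Skin, 64.9, 132 and 107 in Lung, 33.8, 35 and 40.5 in Spleen, 20.9, 43.0 and 15.2 in BM and 7.72, 5.39 and 10.4 in Blood. As deposited it was at 0 counts in Skin replicates 1 and 3 and did not pass in Skin (0.66 ± 1.69, limma adjusted p = 0.860). With the copy added it was above Blood in all 3 Skin libraries and the difference was 4.07 ± 0.65 (limma adjusted p = 0.000308). In Intestine it passed both ways, at 6.40 ± 1.69 as deposited and 5.44 ± 0.65 with the copy.

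mt-Cytb, the cytochrome b of complex III, shares no stretch of 61 bases with a copy. It read 34456, 11373 and 10034 in Intestine, 3548, 8505 and 1883 in Skin, 2466, 3286 and 2506 in Lung, 785, 591 and 1035 in Spleen, 379, 529 and 203 in BM and 154, 179 and 247 in Blood. Lung, Intestine and Skin lay above Blood in all their libraries, and the 3 Intestine libraries lay above all 15 others. The log2 difference from Blood was 3.84 ± 0.50 in Lung, 6.37 ± 0.50 in Intestine and 4.33 ± 0.50 in Skin, with limma adjusted p of 7.35e-05, 9.11e-08 and 1.09e-05. In Spleen it was 2.04 ± 0.50 and did not pass (limma adjusted p = 0.0667), although its 3 libraries lay above those of Blood. Against the mean of the other 5 tissues the Intestine difference was 4.16 ± 0.38 (limma adjusted p = 2.82e-07).

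mt-Co1, the catalytic subunit of complex IV, had with mt-Atp6 the highest mean levels per base, copies added, of the 13 genes. Its scaled counts were 99163, 27333 and 27224 in Intestine, 6831, 17558 and 5386 in Skin, 7642, 9948 and 8148 in Lung, 3049, 2164 and 4550 in Spleen, 1575, 2488 and 1475 in BM and 1447, 1523 and 1071 in Blood. It showed the smallest rise of the genes that passed in Intestine, 4.98 ± 0.44 on the log2 scale (limma adjusted p = 4.02e-07), a mean 38-fold that of Blood, or 20.2-fold without Intestine replicate 1. The rise was 2.68 ± 0.44 in Lung and 2.70 ± 0.44 in Skin, and in Spleen the difference of 1.22 ± 0.44 did not pass (limma adjusted p = 0.369). BM overlapped with Blood. As deposited, the 3 Intestine libraries lay above all 15 others for mt-Co1, mt-Nd6 and mt-Cytb, against 5.17% of all tested genes, and with copies added they did so for mt-Atp6 and mt-Nd4l too.

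For mt-Co2 the deposited values ran from 0.118 to 1215 and no comparison with Blood passed. With the copies added it read 14563, 3900 and 3897 in Intestine, 1231, 4083 and 727 in Skin, 743, 1162 and 909 in Lung, 423, 297 and 585 in Spleen, 213, 349 and 195 in BM and 204, 121 and 134 in Blood. Every library of Spleen, Lung, Intestine and Skin was then above Blood, and the log2 differences were 2.62 ± 0.54 in Lung, 5.34 ± 0.54 in Intestine and 3.36 ± 0.54 in Skin (limma adjusted p of 0.00440, 1.26e-06 and 0.000369). mt-Co3, the third core subunit of the enzyme, read 5105, 1602 and 1323 in Intestine, 625, 2317 and 415 in Skin, 513, 641 and 470.2 in Lung, 151, 115 and 316 in Spleen, 95.9, 117 and 101 in BM and 73.0, 22.7 and 70.5 in Blood with its copy. Its Intestine difference of 7.16 ± 0.96 as deposited was the largest of the 13 fitted values, and with the copy it was 5.47 ± 0.61, the fourth smallest. The difference as deposited also passed in Lung (3.27 ± 0.96, limma adjusted p = 0.0441) and Skin (4.90 ± 0.96, limma adjusted p = 0.00189), and the former was lost in 13 of 30 alternative fits.

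mt-Atp6 forms the proton channel of ATP synthase. As deposited it read 3292, 6.12 and 1479 in Intestine, 3621, 76.2 and 2219 in Skin, 719.8, 937 and 2.04 in Lung, 13.4, 648 and 0.767 in Spleen, 595, 0.337 and 0.364 in BM and 0.302, 17.8 and 0.357 in Blood, with high and low libraries in every tissue. Its difference passed only in Skin (8.05 ± 2.58, limma adjusted p = 0.0377), while that in Intestine, 6.66 ± 2.58, did not (limma adjusted p = 0.0619). With Gm10925 added it read 37592, 13321 and 12420 in Intestine, 3621, 9973 and 2219 in Skin, 3154, 3758 and 2988 in Lung, 1095, 752 and 1867 in Spleen, 604, 1011 and 523 in BM and 404, 441 and 354 in Blood. Every library of the other 5 tissues was then above Blood, and the log2 differences were 3.04 ± 0.47 in Lung, 5.53 ± 0.47 in Intestine and 3.43 ± 0.47 in Skin.

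mt-Atp8 codes for a small stalk subunit and shares no stretch with a copy. Its scaled counts were 374, 119 and 73.1 in Intestine, 4.93, 578 and 6.60 in Skin, 28.4, 22.4 and 8.25 in Lung, 8.54, 4.54 and 11.1 in Spleen, 7.15, 51.0 and 1.98 in BM and 0.299, 0.381 and 0.990 in Blood. In Blood they stand for 2, 3 and 9 counts, and in Skin replicate 2, at 578, for 1334. It passed in Intestine (6.61 ± 1.29, limma adjusted p = 0.000650) and in Skin (4.28 ± 1.29, limma adjusted p = 0.0274), but without Skin replicate 2 the Skin difference was 2.14 and did not pass (limma adjusted p = 0.131). Of its 204 bases 43 overlap mt-Atp6, so single reads there belong to both genes.

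**Figure D3:**
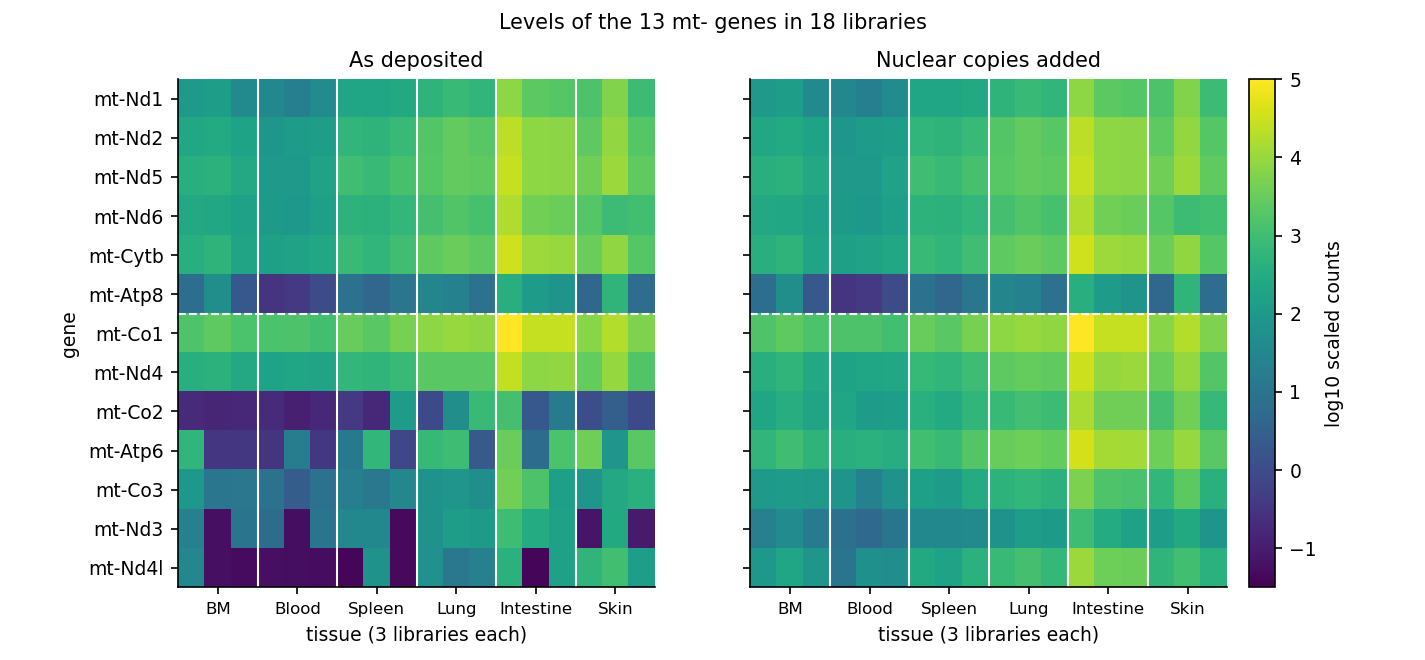
Colour shows log10 of the scaled counts for the 13 mt- genes (rows) in the 18 libraries (columns, 3 per tissue), as deposited on the left and with the nuclear copies added on the right; the dashed line parts the 6 genes sharing under 10% of their sequence with copies from the other 7. On the left mt-Co2, mt-Atp6, mt-Co3, mt-Nd3 and mt-Nd4l break up into single bright and dark libraries, and on the right they follow the same tissue pattern as the upper rows.

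**Figure D4:**
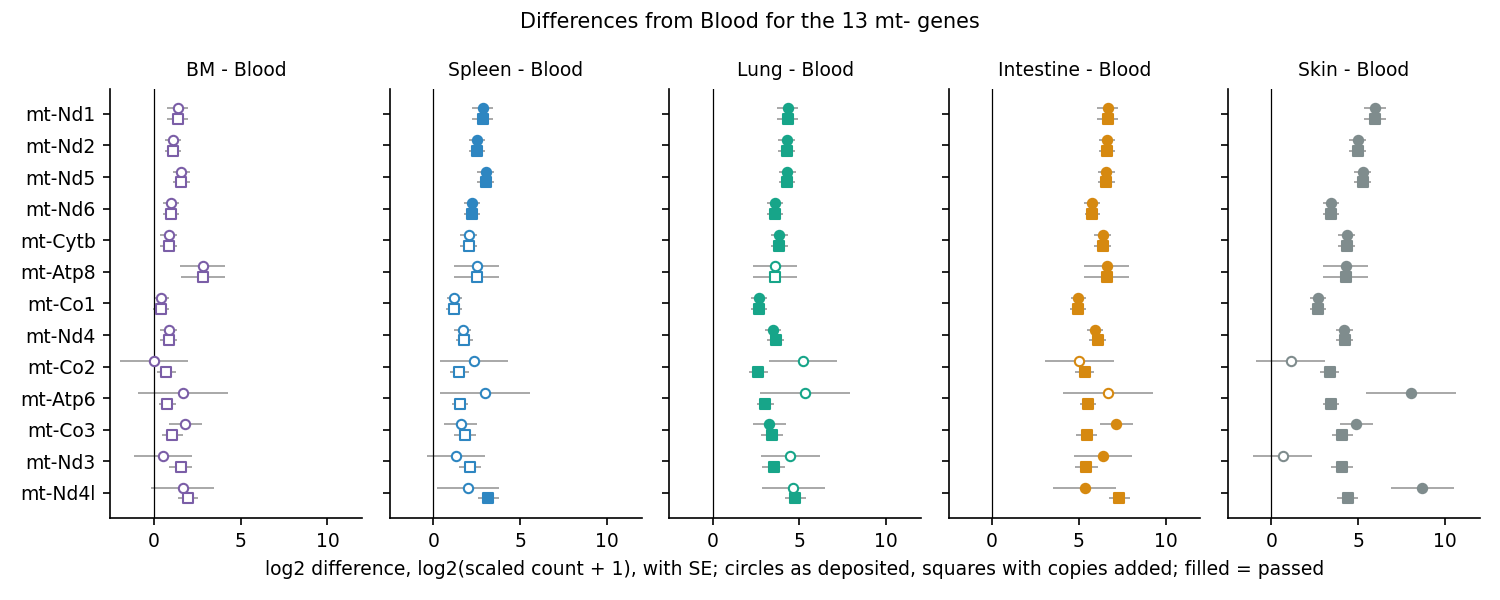
Log2 difference from Blood with its SE for each mt- gene (rows) in 5 tissues (panels), as deposited (circles) and with nuclear copies added (squares); filled symbols passed limma's test at an adjusted p of 0.05. All values lie to the right of 0, 11 circles are filled in Intestine and 11 in Skin, and the squares of the 5 lowest genes have shorter error bars than the circles.

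Intestine replicate 1 and Skin replicate 2 stood apart in these values. Without Intestine replicate 1, 10 of 13 genes were still higher in Intestine than in Blood: mt-Nd4l no longer passed (log2 difference 3.64, limma adjusted p = 0.186), and the unique genes mt-Nd1, mt-Nd2, mt-Nd5, mt-Nd6 and mt-Cytb kept differences of 6.04, 6.08, 5.97, 5.09 and 5.81. Against the mean of the other tissues 8 passed without it, and mt-Atp8 (limma adjusted p = 0.0631) and mt-Nd3 (0.0657) did not. Without Skin replicate 2, 10 of 13 were higher in Skin than in Blood, with mt-Nd1, mt-Nd2, mt-Nd5, mt-Nd6 and mt-Cytb at 5.20, 4.29, 4.68, 3.67 and 3.76. mt-Nd3 then lay below Blood, at -2.02 ± 1.36 (SE), and did not pass (limma adjusted p = 0.323). Summed over the 13 genes, the scaled counts were 243528 in Intestine replicate 1 against 70620 and 68863 in the other 2, and 64115 in Skin replicate 2 against 27403 and 18242. Scaled counts are set against the authors' effective library, which in Skin was smaller than the total, so the Skin values stand higher on this scale than as a part of all counts.

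The makeup of the mitochondrial messages also varied, as parts of the counts and not per length, with the copies counted in. The complex I genes made up 46.2% ± 0.832 (SD, n = 3) of the counts of all 13 genes in Skin, 38.8% ± 0.994 in Lung, 38.2% ± 0.246 in Intestine, 38.2% ± 3.53 in Spleen, 31.3% ± 2.81 in BM and 23.2% ± 5.92 in Blood. The complex IV genes made up 31.0% ± 2.32, 38.2% ± 0.313, 36.7% ± 1.64, 40.5% ± 2.17, 46.2% ± 3.70 and 55.7% ± 7.30 in the same tissues. The 3 Skin libraries held a larger complex I part (45.4% to 47.0%) and a smaller complex IV part (29.0% to 33.5%) than any other library, while Blood and BM overlapped in both. mt-Co1 alone was 40.1% to 52.6% of the pool in Blood, 29.4% to 32.2% in Intestine and 22.4% to 27.7% in Skin. The complex V part varied less, from 12.2% in Skin to 15% in BM, and mt-Cytb went from 6.92% in Blood to 11.5% in Intestine. These parts of a whole cannot move independently, and they are given with no test.

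Per 1000 bases of gene and with copies added, mt-Co1 and mt-Atp6 led in Blood, at scaled counts of 884 ± 164 and 587 ± 64.4 (SD, n = 3). They were followed by mt-Co2 (224 ± 65.9), mt-Nd6 (222 ± 53.6), mt-Cytb (169 ± 41.8) and mt-Nd4 (155 ± 18.1), which did not differ beyond their spread. mt-Nd1 (34.2 ± 12.4), mt-Nd3 (22.5 ± 7.15) and mt-Atp8 (2.73 ± 1.85) came last. The mt-Atp8 level rests on 2, 3 and 9 counts. Its 204 bases hold only 144 stretches of 61 bases, which division by full length does not allow for, so short genes may read too low. In Intestine mt-Co1 (33234 ± 26914) and mt-Atp6 (31000 ± 20969) again led and could not be ordered within their spread, and mt-Nd3 (1396 ± 1232) and mt-Atp8 (924 ± 794) were again last. The light-strand gene mt-Nd6 stood, per base, at 1.26 to 2.83 times mt-Nd1, mt-Nd2, mt-Nd5 and mt-Cytb combined in 17 libraries, and at 0.251 times in Skin replicate 2. Because RNA of the other strand may be counted for mt-Nd6, these values are no ratio of the strands. The ratio of mt-Nd1 to mt-Cytb per base was 0.133 to 0.412 outside Skin and 0.519, 0.820 and 0.580 in the 3 Skin libraries. The 3 Skin values lay above the other 15.

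Across the 18 libraries the genes with few shared stretches moved closely together. Pearson's r between log2 levels had a median of 0.953 (0.739 to 0.994) over the 15 pairs of mt-Nd1, mt-Nd2, mt-Nd5, mt-Nd6, mt-Cytb and mt-Atp8. Over the 21 pairs of the other 7 genes the median was 0.577 (0.131 to 0.980). With copies added it was 0.964 (0.739 to 0.998) over all 78 pairs. The points share library depth, scaling and tissue, and the values are a description.

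Nuclear genes of mitochondria were taken from 5 lists and read from the same fit. Of 77 nuclear subunits of oxidative phosphorylation 7 were higher in Intestine (9.09%, against 15.8% of all genes) and 0 lower (10.1% of all genes), with a median log2 difference of 0.49 where that of all genes was 0.12. The share of the list that was higher was thus below that of all genes. The 4 of smallest adjusted p were Uqcrb of complex III (2.71 ± 0.60, SE, from a mean of 13.6 ± 6.63 scaled counts in Blood to 88.7 ± 6.67 in Intestine, SD, n = 3), Atp5a1, the catalytic-head alpha subunit of ATP synthase (1.62 ± 0.43, 172 to 529), and the complex I subunits Ndufa12 (3.46 ± 1.05) and Ndufa9 (2.95 ± 0.90). Their limma adjusted p were 0.00207, 0.00739, 0.0187 and 0.0188. The median of the 13 mitochondrial genes in that comparison was 6.40. In Skin 1 of the 77 was higher, Ndufb2 of complex I (3.04), and 12 were lower (1.3% and 15.6%, against 5.64% and 10.4% of all genes), with a median of -0.50 where that of all genes was -0.26. With median-of-ratios size factors the Skin list had 2 higher and 7 lower, at a median of -0.06. In Lung, Spleen and BM 0 of the 77 passed in either direction.

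Among 45 genes that copy mitochondrial DNA and transcribe, process and translate its RNA, 9 were higher in Intestine (20.0%, against 15.8% of all genes) and 1, Tbrg4 (-2.57), was lower (2.22%, against 10.1%), whereas 4 were higher and 4 lower after quantile normalization. The higher ones include Gfm1, an elongation factor of mitochondrial translation (3.79 ± 0.87, log2, SE), Rexo2, an oligoribonuclease (3.85 ± 0.95), and Lrpprc, which stabilises mitochondrial messages (3.08 ± 0.82). Fastkd2, an RNA-binding protein of mitochondria, had 0 counts in Blood and was at least 19.3-fold higher in Intestine against the floor of 3 counts per library. In Skin 0 of the 45 were higher and 4 lower (8.89%, against 10.4% of all genes): Polg and Polg2, subunits of the mitochondrial DNA polymerase (-2.95 and -2.75), Hsd17b10 (-2.48), a subunit of mitochondrial RNase P, and Ptcd1 (-2.94), though 0 were lower with median-of-ratios size factors. Of 12 regulators of mitochondrial biogenesis 0 were higher and 3 lower in Intestine (25%, against 10.1% of all genes): Nrf1 (-2.49 ± 0.76), Gabpb1 (-2.14 ± 0.58) and Yy1 (-1.26 ± 0.45), while with median-of-ratios size factors 2 were higher and 2 lower. In Skin only Nrf1 passed (-2.61). Pprc1, a coactivator, had a difference of 3.04 ± 1.17 that did not pass (limma adjusted p = 0.0600).

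Of 78 tested genes with symbols of mitochondrial ribosomal proteins, 1 of them a pseudogene (Mrpl23-ps1), 7 were higher in Intestine (8.97%, against 15.8% of all genes) and 2 lower (2.56%, against 10.1%), Mrpl33 (-3.46 ± 0.48) and Mrps15 (-3.19 ± 0.88), and after quantile normalization 2 were higher and 3 lower. Mrps6 and Mrps2 had 0 counts in Blood and were at least 29.9-fold and 29.2-fold higher in Intestine. In Skin Mrpl23 (2.37) and Mrps35 (2.66) were higher and Mrps15 (-5.43), Mrpl43 (-3.40), Mrpl14 (-3.15) and Mrpl33 (-1.44) lower (2.56% and 5.13% of the list, against 5.64% and 10.4% of all genes), and in Lung only Mrpl33 passed (-1.63). Of 38 matrix, import and membrane proteins 10 were higher in Intestine (26.3%, against 15.8% of all genes) and 0 lower (10.1% of all genes), led by Slc25a4, an ADP/ATP carrier (5.68 ± 0.86), the chaperones Hspe1 (4.26 ± 0.65) and Hspa9 (3.91 ± 0.71), and Suclg2 of the citric acid cycle (3.69 ± 0.92). Slc25a4, Hspe1 and Hspa9 were also higher in Lung (4.18, 2.83 and 2.64) and in Skin (2.95, 3.41 and 3.33). In Skin Suclg2 was higher (4.20) and Dld (-2.34), Phb (-3.12) and Suclg1 (-2.42) were lower, and in Lung 0 were lower. The genes named here for Lung and Skin and Tbrg4 were picked after their values were seen. In BM and Spleen 0 genes of these lists passed in either direction. The median differences in Intestine were 0.74 for the expression machinery, -0.79 for the regulators, 0.21 for the ribosomal proteins (-0.32 after quantile normalization) and 1.14 for the matrix and membrane proteins. Whether the mitochondrial and nuclear genes differed in their change was not tested.

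**Figure D5:**
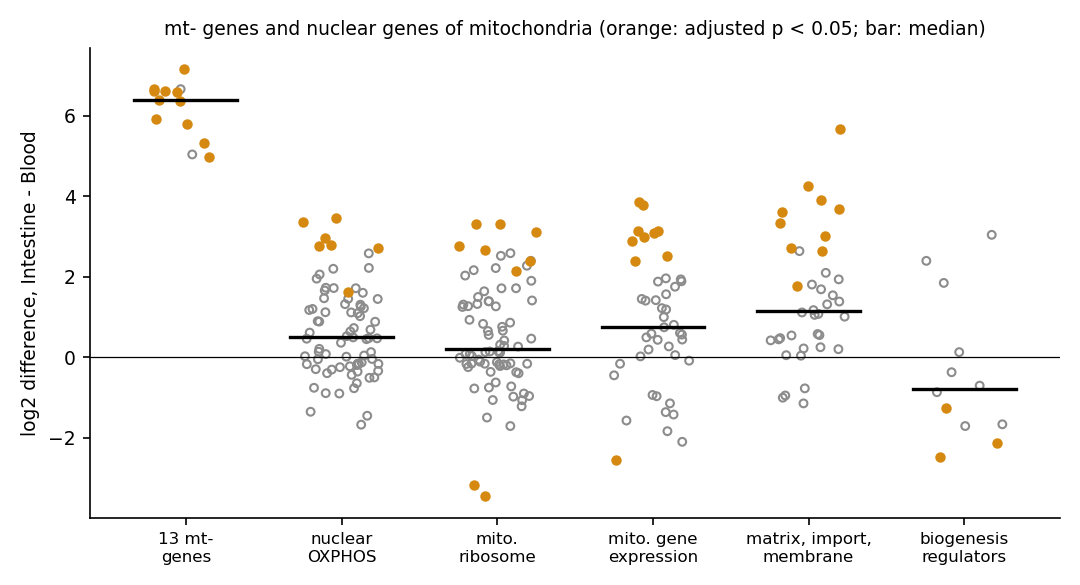
Log2 difference between Intestine and Blood (vertical axis) for the 13 mt- genes and 5 lists of nuclear genes; each point is a gene, orange where limma's adjusted p was under 0.05, and bars are medians. The mt- genes lie between 4.98 and 7.16 with a median of 6.40, and the medians of the nuclear lists lie between -0.79 and 1.14.

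Markers of neutrophils and of other cells also differed between the tissues. Ly6g, which codes for the antigen of the sort, stood at 3.14, 0.410 and 0.346 scaled counts in Intestine, 0.221, 0.216 and 26.9 in Skin and 69.3 to 237 in Blood, with 0 counts in Skin replicate 2; every other neutrophil marker had counts in all 18 libraries. All 12 neutrophil markers were lower in Intestine than in Blood, where 15.8% of all genes were higher and 10.1% lower. In the same comparison 11 of 11 fibroblast and smooth muscle markers were higher (sums of 5807 to 13125 against 59.9 to 78.1), as were 7 of 8 endothelial, 12 of 16 gut epithelial (Slc26a3 was lower), 6 of 12 macrophage, 4 of 10 B and plasma cell (Igha, Jchain, Mzb1 and Cd79a) and 1 of 10 T and NK cell markers (Cd2). Sums of gut epithelial markers were 404 to 758 in Intestine and 63.5 to 84.8 in Blood, those of endothelium 509 to 1396 and 28.9 to 45.4, and those of macrophages 1779 to 3007 and 489 to 730. The B and plasma cell sums were 22675, 6659 and 13989 in the 3 Intestine libraries, of which Igha gave 16707, 4293 and 10150, against at most 164 in Blood. Of 4 tested eosinophil markers 0 passed (sums of 5.32 to 59.8 against 83.0 to 103, with Epx and Ear6 at 0 in Intestine), and 6 of 7 erythroid markers were lower in Intestine (95.7 to 2067 against 2912 to 8902). Intestine replicate 1, the highest in mitochondrial counts, was also highest of the 3 in the macrophage, B and plasma cell, neutrophil, erythroid and eosinophil sums. It was lowest of the 3 in those of fibroblasts and endothelium, and neither highest nor lowest in those of gut epithelium and of T and NK cells. Ncr1, an NK cell receptor, and Hba-a1 were at 0 in Intestine.

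In Lung 8 of 8 endothelial and 6 of 11 fibroblast and smooth muscle markers were higher than in Blood, and 0 of 12 neutrophil markers passed (sums of 6272 to 20448). In Spleen 6 of 10 B and plasma cell markers, Cd2 of the T and NK cells and Mrc1 of the macrophages were higher than in Blood. The neutrophil markers of Spleen summed to 11447, 15751 and 15126 scaled counts, all below Blood, with Ly6g at 7.61 to 23.3, and 0 of 12 passed limma's test. In BM the neutrophil sums were 34142 to 45619, 0 of 12 passed, and Mrc1 was higher. Of 7 erythroid markers 3 were lower than in Blood in BM, 5 in Spleen, 5 in Lung and 6 in Skin, and 0 were higher. Their sums were 2912 to 8902 in Blood, 80.9 to 118 in BM and 19.1 to 80.5 in Spleen. In Lung they were 168 to 647 and in Skin 96.3 to 465. In Lung Mrc1, Ighm and Pax5 of the B and plasma cells, 3 T and NK cell markers (Cd2, Gzma and Ncr1) and the epithelial genes Car4 and Krt19 were higher as well. In Skin 8 of 12 neutrophil markers were lower, with sums of 1761, 24647 and 11944 in replicates 1 to 3, 7 of 12 macrophage markers (sums of 1868 to 4534) and the fibroblast markers Col1a1, Col1a2, Col3a1 and Dcn were higher, and Tagln was lower. The endothelial markers Cdh5 and Clec14a and the epithelial markers Epcam and Fcgbp were higher in Skin too, and Siglecf of the eosinophils was lower. Of all genes 5.27% were higher and 1.02% lower than Blood in Lung, and 0.477% and 0.13% in Spleen. The shares were 0.105% and 0.099% in BM and 5.64% and 10.4% in Skin. Skin replicate 2, the highest of Skin in summed mitochondrial level, had the highest neutrophil sum of the 3 and also the fewest genes detected of all libraries, 9179 against 11860 to 16189 outside Skin. The part of these cells in the mitochondrial values of Spleen, BM, Lung and Skin was not tested either.

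The nuclear protein genes most like the summed level of the 13 genes across the 18 libraries, by Pearson's r of log2 values among 6158 genes with a mean of at least 20, were Pdia6 (0.948), a protein disulfide isomerase of the endoplasmic reticulum, Trim44 (0.935), Tmem176b (0.933), the calcium channel subunit Cacna2d1 (0.923) and the translation elongation factor Eef1a1 (0.914). Pdia6 had mean scaled counts of 338 in Intestine, 170.1 in Skin, 108 in Lung, 59.7 in Spleen, 32.0 in BM and 22.1 in Blood. Eef1a1 had 3227 in Intestine, 2646 in Skin, 2064 in Lung, 1535 in Spleen, 767 in BM and 720.4 in Blood. These genes were picked for the likeness, so their tissue order is no finding. Cacna2d1 was at 71.4 in Intestine and 38.4 in Skin, and at 0.366 in Blood. None of the 5 is on the lists of nuclear mitochondrial genes.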

How the data were processed

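Neutrophils were sorted by FACS on CD45, CD11b, Ly6G and DAPI from adult mice, with a purity typically above 95%, and RNA was amplified with the NuGEN Ovation Single Cell kit and read as single ends of 61 bases, per the labels' protocols. The submitters' processing notes name CASAVA, RSEM 1.3.1, limma and mm10, with no order; the annotation and the use of strand are not given in the sources used here. The deposited signal values, named TPM by the authors, follow (estimated count + 0.5) / (effective library + 1) × 1e6, with no gene length, as read from each column's lowest value. The estimated counts solved from this were whole within 0.01 for 50.2% to 66.9% of values, so no count test was run.

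Symbols, coordinates and sequences came from GENCODE vM21 on GRCm38 (mm10). Of all genes, the 16157 that reached 1 in 3 or more of the 18 libraries were fitted with limma 3.58.1 in R 4.3.3 on log2(value + 1), with 6 group means, a trended prior and 12 residual degrees of freedom, and adjusted by Benjamini-Hochberg at 0.05. A fold change on this scale understates the change of low genes. In a simulation of Intestine minus Blood with 11031 genes, 98% of genes raised and 92% of genes lowered 8-fold were recovered. It left out low genes and gave all genes a common dispersion and, apart from the change, equal means in all tissues. It held no outlying libraries, no sharing of reads with copies and no mixture of cells, so these rates do not carry over to the mt- genes. Nuclear copies were found by shared stretches of 61 bases. Gm10800-related transcripts share at least 20% of their stretches of 20 bases with Gm10800. The mt- genes and all lists were chosen with earlier results of these data known. From each nuclear list up to 4 genes of smallest adjusted p in Intestine minus Blood were named, and the 5 nuclear protein genes most like the mt- sum. Alternatives covered the pseudocount, the filter, the scaling, library weights, nuclear copies, the libraries fitted and the replicate block.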

Additional observations from a re-analysis of the deposited data

How the results depend on the processing

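The counts of mt- genes passing limma's test in Intestine (10 to 13 over 30 alternatives), Skin (8 to 13), Intestine against the other tissues (8 to 13) and over the 6 tissues (8 to 13) stayed within 1.5 times their value, and every call was higher. In Spleen the 4 genes became 1 with no filter, 2 with median-of-ratios size factors, 7 with scaling by total estimated counts or after quantile normalization, and 8 with library weights or when only Spleen and Blood were fitted. In BM the 0 genes became 1 with library weights or without the 3 Skin libraries and 2 when only BM and Blood were fitted, and in Lung the 8 became 13 with library weights. Leaving out each library gave 0 to 0 genes in BM, 1 to 6 in Spleen (1 without Blood replicate 1 or 2 or Spleen replicate 1 or 3, 2 without Spleen replicate 2, 6 without Skin replicate 2), 7 to 10 in Lung, 10 to 13 in Intestine, 9 to 11 in Skin, 8 to 12 for Intestine against the others and 10 to 12 over the 6 tissues. The mean part of the counts moved to 0.287% in Blood, 1.16% in Spleen and 3.01% in Lung with the nuclear copies counted in, and to 3.61% in Skin without Gm10800-related transcripts. Leaving out a library gave 0.213% to 0.223% in Blood, 0.360% to 0.453% in BM, 0.790% to 1.02% in Spleen, 2.19% to 2.66% in Lung, 1.72% to 2.20% in Skin and 8.41% to 15.9% in Intestine. Of the mt- calls in Spleen, mt-Nd5 held in all 30 alternatives, and mt-Nd1, mt-Nd2 and mt-Nd6 were lost in 8, 6 and 6. The causes of these moves were not tested.

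Counts over all genes moved further: with library weights they went from 33 to 578 in BM, 98 to 1725 in Spleen, 1017 to 4626 in Lung, 4196 to 7482 in Intestine and 3782 to 5749 for Intestine against the others, and from 2597 down to 1147 in Skin. Without the Skin libraries they were 339, 400, 2533, 6355 and 6162, and with no filter 20, 61 and 652 in BM, Spleen and Lung. The higher genes were 35.08% of those called in Skin, but 17.69% with total counts and 51.12% with median-of-ratios size factors; in Intestine 60.96% became 72.03% with the latter and 48.23% after quantile normalization. The median of all genes moved in Skin from -0.26 to -0.60 and 0.05, and in Intestine from 0.12 to 0.40 and -0.17, under the same scalings. The replicate numbers were not taken to pair the libraries, since correlations of same-numbered libraries were -0.0604 to 0.106 over 15 pairs of tissues, with 0 pairs above 0.1 throughout. A replicate block gave 11 genes over the tissues, 0 in BM, 4 in Spleen, 7 in Lung, 12 in Intestine, 11 in Skin and 10 for Intestine against the others.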
